A study of Mus musculus with 2 samples.

Results

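The lysosomal hydrolases and the proton pump of the lysosome were read here as 43 genes on 2 arrays. One held RNA of untreated bone marrow-derived macrophages (BMDMs) and the other RNA of BMDMs that had received IL-4, and both are labelled 18 h. A gene belonged to the set when the RefSeq accession of a probe for it named one of these 43 genes under its current or an earlier symbol, and each gene was read from its brightest probe. All 43 genes were found, on 53 of 39424 probes, among 20652 genes named in this way. The marrow was that of male Crif1 f/f mice aged 8 weeks, on the C57BL/6 background, so both groups carry the floxed Crif1 allele. The cells were grown from marrow for 7 days with M-CSF, so they model cultured macrophages and not those of a tissue. The dose of IL-4 is not stated for the arrays, nor how many mice gave the RNA. With 1 array per condition there is no replicate check on any difference, no test was run between the conditions, and every difference below describes these 2 arrays.

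Lysosomes break down what a macrophage engulfs and what autophagy delivers. Their hydrolases work at acid pH, which is kept by the vacuolar H+-ATPase (V-ATPase), a rotary pump whose peripheral V1 sector hydrolyses ATP and whose membrane-bound V0 sector carries the protons. Cathepsins and legumain cut proteins, including antigens for MHC class II, while glycosidases, sulfatases and lipid hydrolases take apart glycans, glycosaminoglycans and sphingolipids. Many of these genes are known targets of TFEB and its relatives TFE3, MITF and TFEC, which bind E-box sequences near their start sites. IL-4 drives macrophages to the M2 state, in which uptake by endocytosis is high.

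Signals are background-subtracted intensities, and differences are log2 intensities of IL-4-treated minus untreated BMDMs, each set relative to the 75th percentile of its array. The error given after ± is the spot SD, the median SD of this difference over probes with 10 spots and a signal near that of the gene. It ran from 0.039 to 0.20 over the members. For the brightest members few such probes had a signal near theirs, so their spot SD is itself poorly known. It rests on 1 probe for Ctsb, Ctss and Lamp1 and on 2 for Ctsd. For Ctsh, Ctsl, Ctsz, Lgmn, Ctsa, Psap and Gla it rests on 3. The scanner software put its own error at 10% to 14.5% of the intensity of each member, which amounts to an SD of 0.20 to 0.29 on the log2 difference. Neither covers the spread between cultures, and in these bulk samples fewer cells that express a gene and less of its RNA per cell cannot be told apart. In all, 42 of the 43 members were well above background on both arrays and no member was saturated. The exception was Ctse, an aspartic protease that is known mainly from the stomach and from some immune cells, with an intensity of 11.4 untreated and 8.12 after IL-4, and no fold is given for it.

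Most hydrolases had nearly the same signal on both arrays, and the larger increases in signal were in subunits of the proton pump. Of the 34 measured members other than the pump, 33 lay within 0.4 of 0 on the log2 scale, as did 81.1% of all genes measured on both arrays. The 8 pump genes had a median log2 difference of 0.29, and the 34 other measured members had one of -0.13, beside -0.014 for all 12741 genes that passed background on both. The median of the other members turned positive with median and spike-in scaling, which moved all genes up together, yet stayed below that of all genes in every setting tried, by 0.020 to 0.17. The median of the pump genes lay above that of the other members by 0.37 to 0.48 in every setting. Median scaling, no scaling, the percentile over detected probes and spike-in scaling shift all genes of an array alike. They leave both of these gaps unchanged by construction. Keeping only genes detected on both arrays does so too, since the medians already rest on those genes. The authors' values and the kept flagged spots are nearly the same data, and they gave the same gap of 0.42 between pump and other members. Only the remaining settings could move the gaps by much. At the gene level 3 members had at least 1.5-fold more signal after IL-4, where 5.03% of all genes measured on both arrays did, and 1 had at least 1.5-fold less, where 5.27% did. At 2-fold, 1 member was higher, beside 2.32% of all genes, and 1 was lower, beside 1.44%. The members' counts are therefore close to the background, and 38 of 42 members, or 90.5%, stayed under 1.5-fold either way, as did 89.7% of all genes. Relative to 2 spot SDs, 9 members were higher, beside 27.5% of all genes, and 20 were lower, beside 28.9%. Relative to 2 of the software's SDs 3 members were higher, beside 7.62%, and 1 was lower, beside 8.56%.

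**Figure D1:**
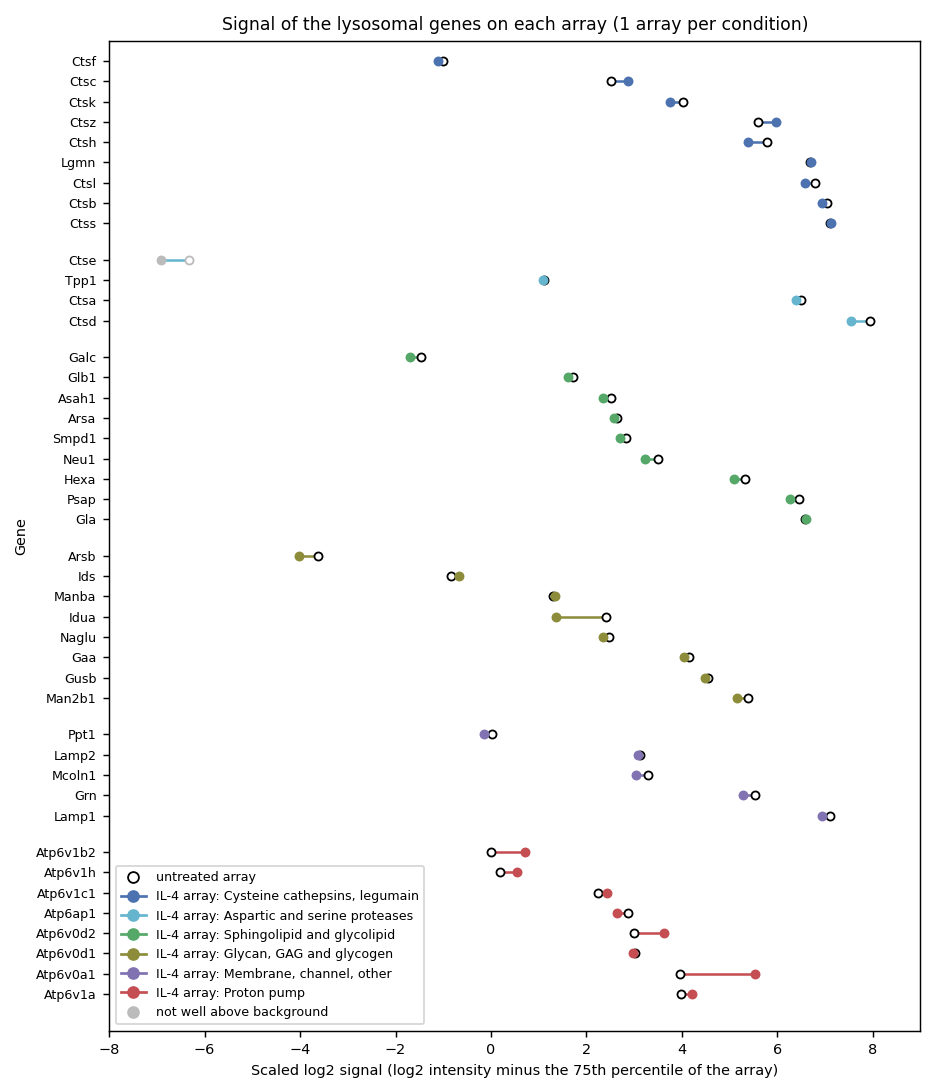
Scaled log2 signal of the 43 genes (horizontal axis) by role, with an open circle for the untreated array, a filled circle for the IL-4 array and a line joining them. Most pairs of circles overlap or nearly touch, Atp6v0a1 and Idua have the longest lines among genes well above background, and the grey circles of Ctse mark signals not well above background. Positions on this axis compare arrays for 1 gene and not genes with each other.

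**Figure D2:**
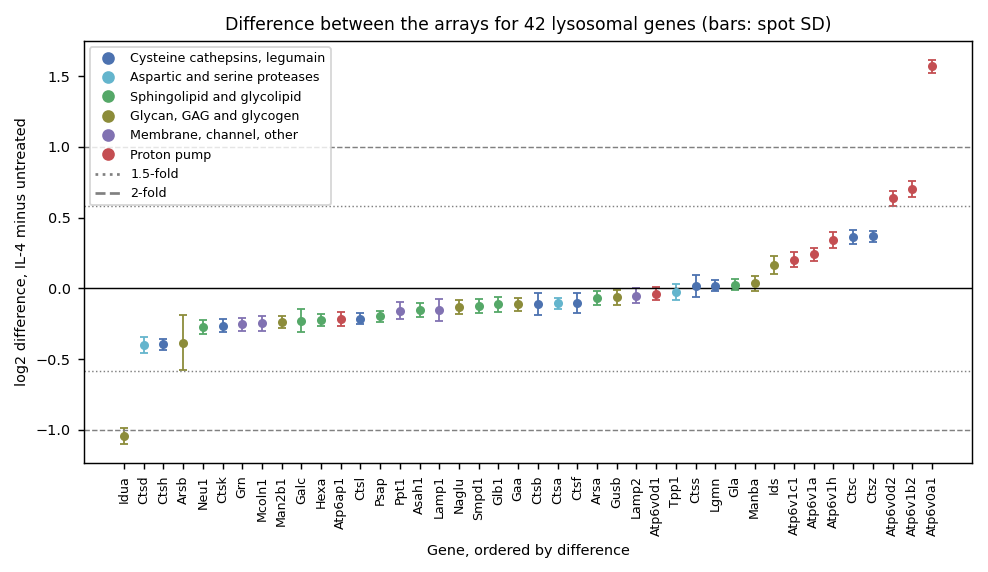
Log2 difference, IL-4 minus untreated, of the 42 measured members in order (vertical axis), coloured by role, with bars of 1 spot SD, dotted lines at 1.5-fold and dashed lines at 2-fold. The 3 genes above the upper dotted line, Atp6v0d2, Atp6v1b2 and Atp6v0a1, are all pump subunits, and Idua is the gene below the lower dotted line; most genes within about 0.3 of 0 change sign with the scaling.

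Atp6v0a1 had the largest difference of the set. It encodes an isoform of the a subunit, the V0 subunit that lines the path of the protons and helps to place the pump in a given membrane. Its intensity was 14278 untreated and 45407 after IL-4, a 2.97-fold higher signal and a log2 difference of 1.57 ± 0.045. Of the 12741 genes measured on both arrays, 103 had a larger difference, or 0.808%. It has 1 probe, and its difference lay between 1.47 and 1.90 in every setting.

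Atp6v1b2 encodes the B subunit of the catalytic V1 head. Its intensity was 922 untreated and 1609 after IL-4, which is 1.63-fold higher, with a log2 difference of 0.70 ± 0.058. Atp6v0d2 encodes an isoform of the d subunit, which links the rotor to V0, and is known from osteoclasts and from macrophages that fuse. Its brighter probe read 7321 untreated and 12192 after IL-4, a 1.55-fold higher signal and a log2 difference of 0.64 ± 0.052. A dimmer probe for the same gene had a difference of 0.86. The brighter probe fell short of 1.5-fold with quantile normalization, with the percentile taken over detected probes and with normexp, at 0.56, 0.58 and 0.54. The other isoform of this subunit, Atp6v0d1, which most cells express, had intensities of 7450 and 7774 and a difference of -0.04 ± 0.047, within the spot error. So the d2 isoform had a higher signal after IL-4 on both of its probes while the d1 isoform, as processed here, moved by less than its spot error. Over the settings Atp6v0d1 lay between -0.105 and 0.288, so its sign depends on the scaling, and Atp6v0d2 lay between 0.536 and 0.962.

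The V1 subunits Atp6v1h, Atp6v1a and Atp6v1c1 were higher by less than 1.5-fold. Atp6v1h, which couples V1 to V0, went from 1050 to 1424, a log2 difference of 0.34 ± 0.058. For Atp6v1a, the catalytic A subunit that binds ATP, the difference was 0.24 ± 0.047 from intensities of 14477 and 18307, and its dimmer probe gave 0.30. Atp6v1c1, a stalk subunit of the reversible joint between V1 and V0, went from 4316 to 5323, with 0.20 ± 0.050. Each of the 4 V1 members thus had more signal on the IL-4 array, in every setting tried. The accessory protein Atp6ap1, which takes part in assembly of V0, lay on the other side at -0.22 ± 0.049, from 6675 to 6152, and its dimmer probe had a difference of -0.21; its sign turned with spike-in scaling, to 0.11.

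The other V-ATPase genes on the array were read in the same way. Of 17, 12 were well above background on both arrays, with a median difference of 0.073 and a range of -0.42 to 0.31, and none reached 1.5-fold either way. Of the a subunit genes, Atp6v0a2 had a difference of 0.31 ± 0.061 and Tcirg1, the a3 isoform of lysosomes and osteoclasts, had one of 0.11 ± 0.047, both smaller than that of Atp6v0a1. The proteolipid Atp6v0c, which makes up most of the proton-carrying ring, had intensities of 35237 and 44571 and a difference of 0.24 ± 0.045. Atp6v0b, another proteolipid, had one of -0.08 ± 0.047. The lowest value was that of Atp6v1g2, the neuronal G isoform, at -0.42 ± 0.18 from intensities of 84.7 and 67.8, where the spot error is larger. Atp6v0a4, Atp6v1b1, Atp6v1c2, Atp6v1e2 and Atp6v1g3, isoforms known from kidney, testis or other tissues, gave no signal well above background. Counting members and others together, 15 of 20 measured subunit genes were above 0, beside 47.7% of all genes, and their median difference was 0.11. Atp6v1f, Atp6v1d and Atp6ap2 lay at 0.009, 0.02 and 0.04, within their spot SDs, so this count moves with the scaling, as does the share of all genes.

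**Figure D3:**
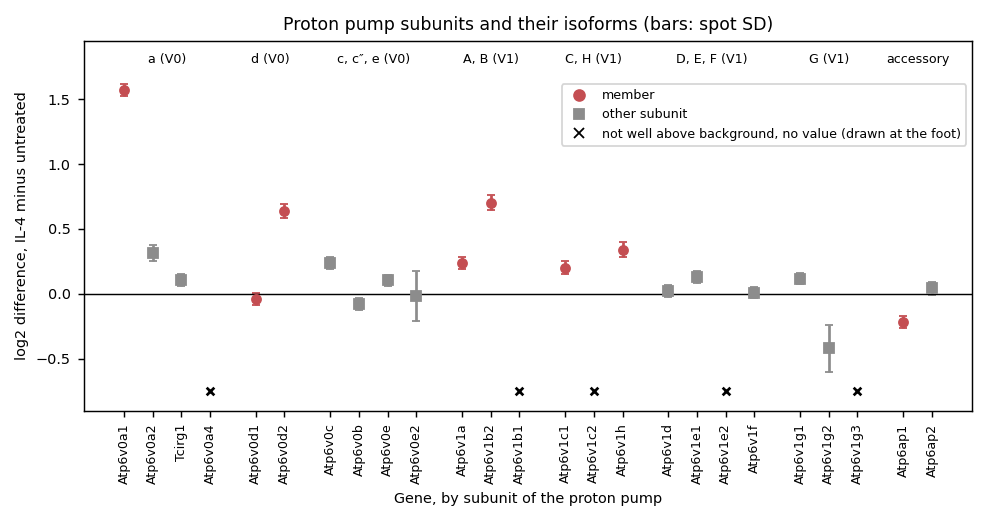
Log2 difference, IL-4 minus untreated, of each V-ATPase gene (vertical axis), ordered by subunit, with circles for members, squares for the other subunit genes, bars of 1 spot SD and crosses for genes with no value. Atp6v0a1, Atp6v1b2 and Atp6v0d2 stand at 1.57, 0.70 and 0.64, and the other measured subunit genes lie between -0.42 and 0.34.

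Among the cysteine proteases, 2 were higher by more than 2 spot SDs, beside 27.5% of all genes, and their signs held in every setting. Ctsz, an exopeptidase that trims the carboxy end of proteins, went from 44506 to 61589, a 1.29-fold higher signal and a log2 difference of 0.37 ± 0.039. Ctsc, which activates the serine proteases of granules, went from 5239 to 7226, also 1.29-fold higher, with 0.36 ± 0.050. Ctsh, an aminopeptidase, had the lowest value of this group, at 50186 and 40905, or 1.31-fold lower, with a difference of -0.39 ± 0.039. These are the genes of the group that stand farthest from 0.

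Ctss, which trims the invariant chain of MHC class II, had intensities of 126549 and 136949 and a difference of 0.01 ± 0.078, so its scaled signal was level between the arrays. Lgmn, the asparagine-specific protease that also activates other cathepsins, had 94309 and 102407, with a difference of 0.02 ± 0.039. Ctsb and Ctsf had differences of -0.11 ± 0.078 and -0.10 ± 0.067. Ctsl and Ctsk, of which the latter is the collagen-cutting cathepsin of osteoclasts, had -0.21 ± 0.039 and -0.26 ± 0.045. Over the 9 genes the median was -0.10, with 4 above 0 and 5 below, beside 47.7% of all genes above 0. Past 2 spot SDs, 2 were higher, beside 27.5% of all genes, and 3 were lower, beside 28.9%. These counts are close to the background.

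Ctsd, the main aspartic protease of lysosomes, had a lower signal on both of its probes. The brighter one read 225712 untreated and 183440 after IL-4, which is 1.32-fold lower, with a log2 difference of -0.40 ± 0.057, and the dimmer one gave -0.81. This sign held in every setting, while the size depends on the probe. Ctsa, a serine carboxypeptidase that also shields β-galactosidase and neuraminidase in a complex, had intensities of 82241 and 81980 and a difference of -0.10 ± 0.039, and its far dimmer probe had 0.062, the only pair of probes of a member with opposite signs. Tpp1, a tripeptidyl peptidase, differed by -0.02 ± 0.055.

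The 9 genes for sphingolipid and glycolipid breakdown lay in a narrow band, between -0.27 and 0.02, with a median of -0.15 and 8 of 9 below 0. Of all 12741 genes measured on both arrays, 6661 were below 0. The lowest were Neu1, the sialidase, at 10407 untreated and 9221 after IL-4 with a difference of -0.27 ± 0.051, and Galc, which splits galactosylceramide, at 332 and 303 with -0.23 ± 0.081. Hexa, the α chain of β-hexosaminidase, had -0.23 ± 0.043, and Psap, the precursor of the saposins that hand lipids to these enzymes, had -0.20 ± 0.039. Asah1 (acid ceramidase), Smpd1 (acid sphingomyelinase), Glb1 (β-galactosidase) and Arsa (arylsulfatase A) had differences of -0.15, -0.12, -0.11 and -0.07. Gla, α-galactosidase A, was the gene above 0, at 0.02 ± 0.039. No gene of this group reached 1.5-fold, and with spike-in scaling, which moved the median of all genes to 0.31, each of the 9 had a positive value.

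Idua, the α-L-iduronidase of heparan and dermatan sulfate breakdown, was the member with the lowest difference. Its brighter probe read 4870 untreated and 2530 after IL-4, a 2.06-fold lower signal and a log2 difference of -1.04 ± 0.053, and 1.26% of genes had a lower value. Its second probe, for the same RefSeq transcript, read 1625 and 1458, with a difference of -0.26. The direction is shared by the probes, but the gap of 0.79 between them is the largest of the 10 members with 2 probes, and the second probe alone puts Idua under 1.5-fold. Slc26a1 lies within the span of Idua in the GRCm38.p6 annotation, and its own probe had a difference of -0.03. Its part in the values of the Idua probes was not tested.

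The other enzymes of glycan, glycosaminoglycan and glycogen breakdown stayed under 1.5-fold. Gusb, β-glucuronidase, gives a direct view of the spot error, since its probe was printed in 10 spots. These spots ranged from 20128 to 21890 with a median of 21494 in untreated cells, and from 20970 to 22569 with a median of 21926 in IL-4-treated cells. These intensities are unscaled, and their ranges overlap. After scaling, the mean over the spots gave a difference of -0.06. The SD of the difference over its spots was 0.045, which holds for single spots and not for their mean. Man2b1, the lysosomal α-mannosidase, went from 38254 to 34773 with -0.24 ± 0.043. Arsb, which removes sulfate from dermatan sulfate, had low intensities of 73.7 and 60.5 and a difference of -0.38 ± 0.20, within 2 spot SDs, and its second probe gave -0.16. Naglu and Gaa, the latter the acid α-glucosidase that degrades glycogen, had -0.13 and -0.11, and a far dimmer probe for Gaa, at 265 and 212, gave -0.43. Manba, β-mannosidase, had 0.04 ± 0.053. Ids, the iduronate sulfatase that acts just before Idua on the same chains, had a positive value in every setting, from 515 to 620 and 0.17 ± 0.062.

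Lamp1 and Lamp2, the main glycoproteins of the lysosomal membrane, had differences of -0.15 ± 0.078 and -0.05 ± 0.051, within 2 spot SDs, from intensities of 125378 and 120915 for Lamp1 and of 7993 and 8260 for Lamp2. The second probe of Lamp2, for another transcript variant, had -0.22. Mcoln1, the calcium channel of lysosomes, went from 8997 to 8114 with -0.25 ± 0.052. Grn, progranulin, which is cut into granulins in the lysosome, went from 42486 to 38172 with -0.25 ± 0.045. Ppt1, which removes palmitate from proteins, had -0.16 ± 0.059. All 5 were below 0 here, beside 6661 of all 12741 genes measured on both arrays, and all 5 were above 0 with spike-in scaling.

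The members with 1 probe have a value under 9 other ways of processing and those with 2 probes under 11, and 13 of the 42 members kept their sign in all that apply to them. Above 0 throughout were Atp6v0a1, Atp6v1b2, Atp6v0d2, Atp6v1h, Atp6v1a, Atp6v1c1, Ctsc, Ctsz and Ids, and below 0 throughout were Idua, Ctsd, Ctsh and Arsb. The rest have a sign that depends on how the arrays are set against each other. The share of all genes that kept their sign was not counted, so these counts have no background beside them. Spike-in scaling moved the median of all genes up to 0.31, and the percentile over detected probes moved it down to -0.069. By construction a sign above 0 was thus easier to keep than one below 0.

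**Figure D4:**
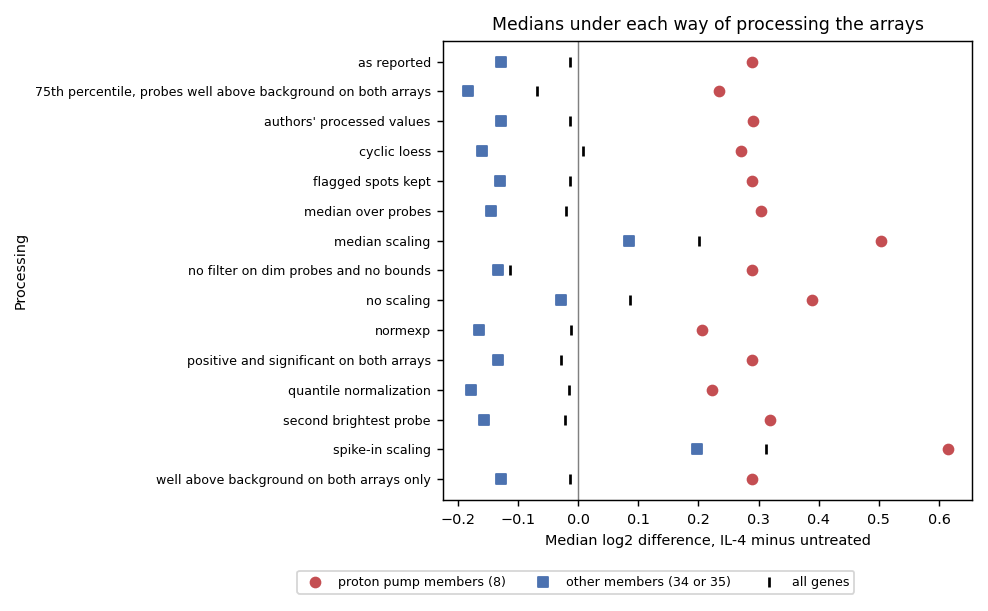
Median log2 difference, IL-4 minus untreated (horizontal axis), of the 8 pump members (circles), of the other members (squares; 34, or 35 where dim probes are kept) and of all genes (ticks), for the processing reported here and each alternative. The circles lie right of the squares in every row, by 0.37 to 0.48. This distance is fixed by construction in rows that only shift a whole array and in the row of genes detected on both arrays. The squares cross 0 with median and spike-in scaling, where the median of all genes moves to 0.20 and 0.31.

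Of 87 further genes of the lysosome, 85 had a probe and 78 were well above background on both arrays, with a median difference of -0.018. Among those with a value, 6 had at least 1.5-fold more signal after IL-4, where 6.36% of 14070 genes detected on 1 or both arrays did, and 4 had at least 1.5-fold less, where 8.95% did. At 2-fold the counts were 3, beside 3.06% of those genes, and 2, beside 3.35%. Pla2g15, the lysosomal phospholipase A2, was 1.68-fold higher, at 6588 and 11826. For Sgsh, the heparan sulfamidase, the brighter probe was 1.82-fold higher and a dimmer one had a difference of -0.42. Slc17a5, the sialic acid exporter, was 2.12-fold lower at its brighter probe, and its dimmer probe had 0.52. The probes of these last genes go opposite ways, so no direction is drawn from them. Slc11a1, the metal ion exporter of phagosomes, went from 16171 to 11117, or 1.56-fold lower, and Sort1, the sorting receptor sortilin, from 1663 to 1176, or 1.52-fold lower.

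Cst7, which encodes cystatin F, an inhibitor of cathepsins including Ctsc, was not well above background untreated, at an intensity of 28.5, and read 352 after IL-4, so it was at least 11.3-fold higher. The inhibitors Cst3 and Cstb had differences of -4.7e-05 and -0.06. Among the transcription factors of lysosomal genes, Tfec went from 195 to 1064, a 5.09-fold higher signal with a difference of 2.35 ± 0.067, and Mitf from 5989 to 14391, 2.24-fold higher with 1.17 ± 0.054, where its dimmer probe gave 0.98. Tfeb and Tfe3 had smaller differences, of 0.18 ± 0.063 and 0.17 ± 0.046. Rragd, a Rag GTPase that recruits mTORC1 to the lysosome, was at least 3.14-fold lower, from 81.6 to a signal of 26.6 that was not well above background. Of the same nutrient-sensing machinery, Rptor had a difference of 0.25 ± 0.052 and Rragc one of -0.22 ± 0.052, with -0.40 at its dimmer probe, while Mtor, Flcn and Lamtor1 each lay within 0.03 of 0.

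Promoters were read to show what the members share in sequence, as these transcription factors bind the E-box CACGTG. The windows run from 250 bases before to 50 after a start site in the RefSeq annotation of GRCm38.p6, and 35 of the 43 members had 1 or 2. CACGTG, which reads the same on both strands, was present for 14 of the 35 genes, or 40.0%, and for 8.09% of 27025 genes of all kinds. With a T before it on either strand (TCACGTG, which contains the shorter motif), it was present for 12 members, or 34.3%, and for 4.29% of all genes. TTC followed after 4 bases of any kind by GAA, the spacing bound by STAT6, which IL-4 activates, was present for none of the 35 members and for 8.01% of all genes. A match of letters does not show binding, and no test was run on these shares. The 14 genes with CACGTG had a median difference of -0.11, from -0.40 for Ctsd to 0.24 for Atp6v1a, and the 21 without it had one of -0.16, from -1.04 for Idua to 1.57 for Atp6v0a1. The genes that passed 2-fold, Atp6v0a1 and Idua, were among the 21 without the motif in this window, and the second probe of Idua stayed under 1.5-fold. Of the pump genes only 4 had a window, and Atp6v0d2 and Atp6v1b2 were not among them. Whether the motif goes with the differences was not tested. The windows that follow are those of Lamp1, which holds the most copies, of the channel gene Mcoln1, of Atp6v1a, and of Atp6v0a1 as the member with the largest difference. They lie at chr8:13158911-13159210 on the plus strand for Lamp1, chr8:3500269-3500568 on the plus strand for Mcoln1, chr16:44139210-44139509 on the minus strand for Atp6v1a and chr11:101010148-101010447 on the plus strand for Atp6v0a1. Each is printed on the strand of its gene, with CACGTG in capitals.
Lamp1: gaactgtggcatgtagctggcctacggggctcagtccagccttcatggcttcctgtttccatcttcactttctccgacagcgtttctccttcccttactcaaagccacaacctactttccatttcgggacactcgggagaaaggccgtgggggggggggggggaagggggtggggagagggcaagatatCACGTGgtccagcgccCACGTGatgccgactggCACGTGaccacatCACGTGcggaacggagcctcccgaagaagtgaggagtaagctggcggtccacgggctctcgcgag
Mcoln1: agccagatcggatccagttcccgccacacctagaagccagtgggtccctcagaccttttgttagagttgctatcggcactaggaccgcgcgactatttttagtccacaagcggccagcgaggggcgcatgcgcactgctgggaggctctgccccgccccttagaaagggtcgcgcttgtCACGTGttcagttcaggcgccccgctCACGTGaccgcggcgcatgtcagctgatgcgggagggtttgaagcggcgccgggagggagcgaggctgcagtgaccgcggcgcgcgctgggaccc
Atp6v1a: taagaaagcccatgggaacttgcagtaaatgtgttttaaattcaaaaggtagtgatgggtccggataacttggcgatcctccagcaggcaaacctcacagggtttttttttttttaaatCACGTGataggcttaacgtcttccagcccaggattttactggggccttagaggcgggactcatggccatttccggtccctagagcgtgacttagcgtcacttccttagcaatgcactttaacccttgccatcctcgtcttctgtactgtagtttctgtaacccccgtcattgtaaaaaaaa
Atp6v0a1: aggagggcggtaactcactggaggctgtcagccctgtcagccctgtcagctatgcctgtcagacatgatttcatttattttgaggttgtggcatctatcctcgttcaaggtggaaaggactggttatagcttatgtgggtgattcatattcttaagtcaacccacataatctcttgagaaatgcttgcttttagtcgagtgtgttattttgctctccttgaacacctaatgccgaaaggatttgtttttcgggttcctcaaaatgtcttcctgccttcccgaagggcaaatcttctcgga
Lamp1 holds 4 copies, which start 61, 45, 28 and 15 bases before the start site, and its signal differed by -0.15. Mcoln1 holds 2, starting 71 and 45 bases before it, Atp6v1a has 1, starting 131 bases before it, and Atp6v0a1 has none in this window.

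Marker genes were read to check what cells the RNA came from. Of 6 macrophage markers 5 had a probe matched here, and all 5 were well above background on both arrays. Their median log2 difference was -0.70. Adgre1 and Csf1r had differences of 0.17 and 0.09, while Itgam and Lyz2 were each 1.63-fold lower after IL-4 and Fcgr1 was 2.34-fold lower. The 4 genes of the IL-4 response list each had at least 2-fold more signal after IL-4. Among markers of other cells, the genes with a value numbered 5 of 6 for neutrophils, 3 of 4 for eosinophils, 2 of 4 for lymphocytes, 1 of 4 for dendritic cells and 4 of 4 for fibroblasts, and none of them reached 1.5-fold either way. The brightest were Col1a1 of fibroblasts, at 58153 untreated and 49150 after IL-4, and S100a9 of neutrophils, at 26443 and 26347. Siglecf of eosinophils read 772 and 817, and Nkg7 of lymphocytes read 1382 and 1206. Epx, Cd79a, Flt3, Cd209a and Xcr1 gave no signal well above background. Summed over each of these 5 lists, the intensity after IL-4 was between 0.86 and 1.14 times the untreated one. The part of these cells and of the macrophage markers in the members' differences was not tested. The 4 osteoclast markers summed to 539 untreated and 1133 after IL-4. Within that list Ocstamp, a membrane protein of cell fusion, was 7.77-fold higher, from 79.2 to 659, while Oscar and Mmp9 had differences of 0.19 and -0.11 and Calcr was not well above background. Ocstamp moved the same way as Atp6v0d2, and its part in that result was not tested.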

How the data were processed

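Untreated and IL-4-treated BMDMs were each measured on 1 single-colour (Cy3) Agilent array, and the groups follow the labels. What the authors deposited per array is the output of Agilent's Feature Extraction 10.10.1.1 under default settings, with intensity values background-subtracted and detrended within each array and unscaled between arrays. A second deposited table holds the authors' log2 values and served as an alternative; how it was made is not given in the sources used here. Control spots and outlier-flagged spots were left out, the spots of each probe were averaged as log2 intensities, and each array was set relative to its own 75th percentile, 9.84 untreated and 9.94 after IL-4. A probe counted as well above background when most of its spots carried that flag. Where this held on 1 array only, the fold is a bound, taken against the probe's own signal or the array's lowest signal with the flag, whichever was higher. The array design is annotated on mm9. A GRCm38.p6 table gave gene names by RefSeq accession. It matched 27223 of 39424 probes, and promoter windows are those of RefSeq on GRCm38.p6. Members past 1.5-fold, with no fold or with disagreeing probes were named with both values, and the rest by role. The members and all lists were chosen with earlier results of these data known, and lists give counts and medians without a test. The spot error rests on 256 probes printed in 10 spots, of which few are as bright as the brightest members. Precision is limited by having 2 arrays. Values of some single genes are not reported here. Counting at 2-fold was tested on simulated data with larger changes in bright probes. The 1.5-fold cutoff, the choice of probe and the bounds for dim probes were not part of that test. Python 3.11.15, pandas 2.3.3, numpy 2.4.6, R 4.3.3 and limma 3.58.1 were used.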

Additional observations from a re-analysis of the deposited data

How the results depend on the processing

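No paired analysis was possible because there was a single array per condition, and for the same reason no array could be left out. The settings were median, quantile and cyclic loess scaling, no scaling, a 75th percentile taken over detected probes only, scaling on 8 spike-in probes, normexp, the authors' processed values, flagged spots kept, other rules for several probes and for dim probes, and a 1.5-fold cutoff. A median counts as moved beyond the median spot SD. The median of the members, -0.11, was 0.10 with median scaling, -0.014 without scaling and 0.21 with spike-in scaling. For the pump members, at 0.29, it was 0.50, 0.39 and 0.62 with these, 0.22 with quantile normalization and 0.21 with normexp. For the other members, at -0.13, it was 0.085, -0.029 and 0.20, and for the further lysosomal genes, at -0.018, it was 0.20, 0.082 and 0.31. All genes moved from -0.014 to 0.20, 0.086 and 0.31. No 2-fold or 1.5-fold member changed sign in any setting.

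Members at least 2-fold higher numbered 1, and 2 with spike-in scaling; at least 1.5-fold higher, 3, and 6 with spike-in scaling, and 2 (without Atp6v0d2) with quantile normalization, the percentile over detected probes and normexp. Members at least 2-fold lower numbered 1, and 0 with median scaling, no scaling, spike-in scaling, the median over probes and the second brightest probe. Members at least 1.5-fold lower numbered 1, and 2 with the median over probes, with positive and significant signals and with no filter. Further lysosomal genes at least 2-fold higher numbered 3, then 5 with median and 6 with spike-in scaling and 2 to 4 in the other settings, and those at least 1.5-fold higher 6, then 10 with spike-in scaling and 5 to 7 in the others. Those at least 2-fold lower numbered 2, and 1 with median scaling, no scaling, spike-in scaling, normexp, the median over probes, the second brightest probe and with genes detected on both arrays alone, and 2 or 3 in the others. Those at least 1.5-fold lower numbered 4, and 2 with median scaling, no scaling, spike-in scaling, the median over probes and the second brightest probe, and 3 to 6 in the others. Scalings that move all genes together move these counts by construction, and for the other settings the cause was not tested. Shares over all genes were counted for the reported processing only. The counts under the other settings therefore cannot be read against a background.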
